A study of Mus musculus with 24 samples.

Results

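The cytosolic ribosomal protein genes were taken by symbol, as every gene named Rps or Rpl followed by a number (with an optional final a, l or x) together with Rpsa, Rplp0, Rplp1 and Rplp2. The rule found 82 of 49568 symbols in both deposited tables, 32 for the small and 50 for the large subunit. It leaves out ribosomal proteins with other names, such as Fau. RNA was sequenced from 24 samples of mouse liver cells in 2 experiments. In the homeostasis experiment, 4 populations were sorted from the same 3 healthy littermates (A and E male, F female, 12 weeks old, heterozygous for B6.129S4-Pdgfratm11(EGFP)Sor/J, in which the Pdgfra promoter drives a nuclear GFP that served as the PDGFRα signal of the sort). One was the EpCAM+ ductal cell (DC). The stromal populations, gated as lacking CD45, CD11b and CD31, were PDGFRα+ cells with SCA1 (PDGFRα+SCA1+), PDGFRα+ cells without it (PDGFRα+SCA1-), and SCA1+ cells that lacked PDGFRα (PDGFRα-SCA1+). In the transwell experiment, wild-type C57BL/6 cells of mice aged 8 to 12 weeks gave 6 groups of 2 samples. These were DCs at day 0, DCs grown for 15 days alone in expansion medium (EM organoids), DCs grown for 15 days in mesenchymal medium over SCA1+Msc cells (co-cultured organoids), and SCA1+Msc cells (sorted SCA1+ mesenchymal cells) at day 0, cultured alone or cultured under the DCs across a membrane that cells do not pass. The SCA1+Msc cells were sorted as SCA1+ cells lacking CD45, CD11b and CD31, with no PDGFRα gate named. Those for culture were first expanded in mesenchymal medium before the DCs were added, and so spent longer in culture than the organoids. The culture comparisons therefore join a change of medium, time outside the liver and, in co-culture, the presence of the other cell type.

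Each ribosome carries a set of small and large subunit proteins, most of them present once, and the P-stalk proteins Rplp0, Rplp1 and Rplp2, which recruit elongation factors to the large subunit. Their mRNAs are abundant in growing cells, and many begin with a run of pyrimidines, the terminal oligopyrimidine (TOP) motif, through which mTORC1 signaling controls their translation. Nearly every ribosomal protein gene also has processed pseudogenes, intron-less copies elsewhere in the genome, so that part of its mRNA cannot be assigned to 1 place from short reads. Reads here were 50 bases long, and reads of low mapping quality were removed before counting, so each value counts only the reads that could be placed.

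The transcription starts of members that later results turn on are shown for the pyrimidine run of at least 8 bases, in capitals, each with the 20 bases before and the 30 bases from the start that RefSeq gives (GRCm38.p6). Rpl39 and Rpl13a are among the largest rises in culture and hold a run, Rplp0 rose without one, Rpl28 and Rps12 fell in all 3 culture comparisons with a run, Rpl9 and Rpl10 fell without one, and Rpl26 differed between mice. Rpl28, Rps12 and Rpl26 were chosen for this after their values were seen. A run was marked anywhere in the window, so it need not open the mRNA as a TOP motif does. That of Rpl39 begins at -20 and lies wholly before the start, and that of Rpl26 begins at 21. Whether these starts are the ones used in the cells sequenced here was not tested.
Rpl39 (chrX:37085193-37085242, minus strand): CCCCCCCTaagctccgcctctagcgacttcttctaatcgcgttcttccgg
Rpl13a (chr7:45128716-45128765, minus strand): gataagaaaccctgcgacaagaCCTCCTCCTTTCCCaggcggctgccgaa
Rplp0 (chr5:115559447-115559496, plus strand): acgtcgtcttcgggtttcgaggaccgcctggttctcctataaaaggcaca
Rpl28 (chr7:4792945-4792994, plus strand): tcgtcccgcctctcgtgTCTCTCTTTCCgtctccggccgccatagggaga
Rps12 (chr10:23787180-23787229, minus strand): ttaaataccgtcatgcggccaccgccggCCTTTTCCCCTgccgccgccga
Rpl9 (chr5:65391402-65391451, minus strand): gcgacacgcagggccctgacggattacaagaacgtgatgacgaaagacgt
Rpl10 (chrX:74270796-74270845, plus strand): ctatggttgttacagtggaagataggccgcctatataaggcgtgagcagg
Rpl26 (chr11:68901546-68901595, plus strand): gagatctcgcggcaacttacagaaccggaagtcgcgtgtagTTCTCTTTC

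Of the 82 members, 60 had a promoter entry in RefSeq. A run of at least 8 C or T on the coding strand lay in this window of 50 bases in 33 of the 60 (55.0%), against 21.5% of 27025 symbols with an entry. The letters CCGGAAG, searched on both strands over the 300 bases of each entry, were present in 25 of the 60 (41.7%), against 9.93% of all symbols. A match describes these letters only.

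Members took a larger share of expression in cultured than in freshly sorted cells of the transwell experiment. The summed TPM (transcript abundance per length, scaled to a fixed total in each sample) of all members was 1.59% and 1.53% of the total in DCs at day 0, 3.45% and 3.61% in EM organoids, and 2.14% and 2.35% in co-cultured organoids. The 3 ductal groups did not overlap, and the mean share was 2.27-fold higher in EM organoids and 1.44-fold higher in co-cultured organoids than in DCs at day 0. In SCA1+Msc cells the share was 1.64% and 1.69% at day 0, 2.20% and 2.41% in cells cultured alone, and 2.32% and 2.45% in co-cultured cells. Both cultured mesenchymal groups lay above day 0 and overlapped with each other. With 2 samples per group the shares were described without a test.

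In the homeostasis experiment, PDGFRα+SCA1+ cells had the highest mean share, 1.29% ± 0.110 (SD, n = 3), in the deposited values. The samples of mice A, E and F had shares of 1.28%, 1.19% and 1.40% there, of 0.990%, 0.926% and 0.997% in DCs, and of 0.854%, 0.913% and 0.930% in PDGFRα+SCA1- cells. In PDGFRα-SCA1+ cells the share was 0.950% and 0.943% in mice A and E and 1.36% in mouse F, so this group spread from the level of the DCs to that of the PDGFRα+SCA1+ cells. Of the 82 members, which include Rpl10l at 0 in every sample, 38 had their highest mean in PDGFRα+SCA1+ cells and 57 had their lowest in PDGFRα+SCA1- cells. The same counts over all genes were not made. Against DCs, the median log2 fold change in PDGFRα+SCA1- cells was -0.44 for members and -0.47 for all genes tested, so these medians were close. Of 78 members tested there, 8 had a positive change, against 35.9% of all genes. In PDGFRα+SCA1+ cells the medians for members and all genes were 0.11 and -0.28. The ratio of summed small to summed large subunit values was 0.663 ± 0.022 in DCs (SD, n = 3). Among stromal cells it was 0.560 ± 0.031 for PDGFRα+SCA1+, 0.511 ± 0.027 for PDGFRα+SCA1- and 0.636 ± 0.077 for PDGFRα-SCA1+ samples. In the transwell experiment the same ratio was 0.678 and 0.679 in DCs at day 0, 0.670 and 0.682 in EM organoids, 0.722 and 0.723 in co-cultured organoids, and between 0.610 and 0.647 in the 6 SCA1+Msc samples. Co-cultured organoids thus stood above every other transwell sample in this ratio, and the PDGFRα+ samples lay below every DC sample, while 1 PDGFRα-SCA1+ sample reached 0.723. The small subunit sum counts the pseudogene Rps4l and the paralog Rps27l, both higher in every DC than in every PDGFRα+ sample. Rps4l had 391, 206 and 222 in DCs of mice A, E and F and 48.3, 52.7 and 40.2 in PDGFRα+SCA1+ cells. For Rps27l these were 376, 334 and 266 and then 98.4, 94.7 and 124. Their part in the ratio was not tested.

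**Figure D1:**
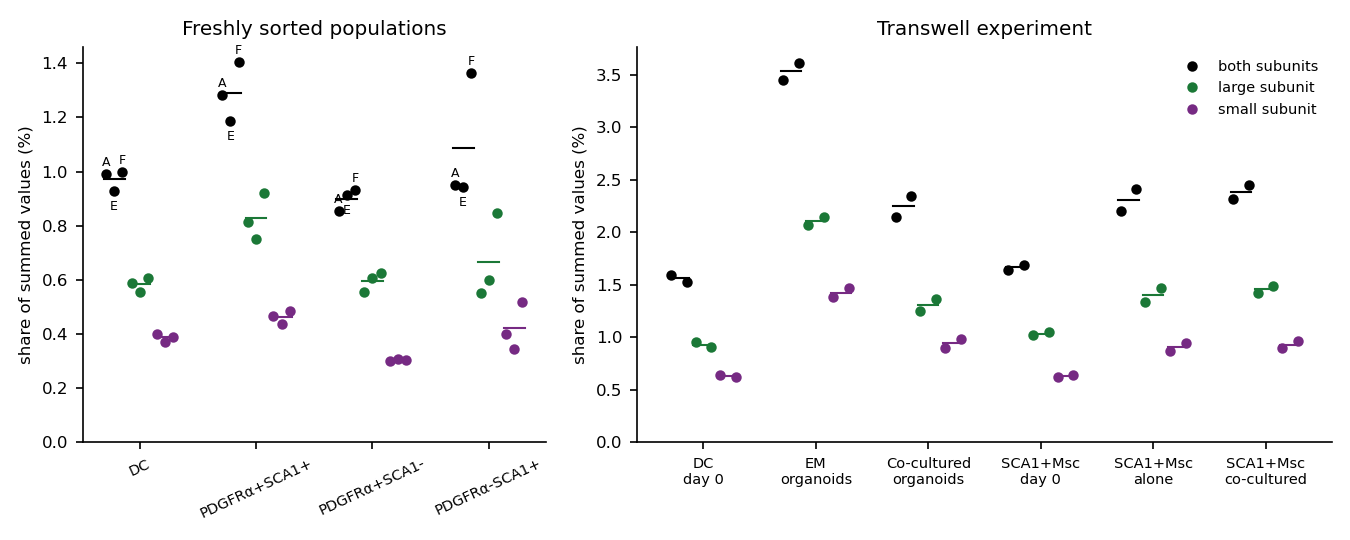
Share of summed values taken by the 82 members (black), the large subunit (green) and the small subunit (purple), in percent of all genes, for each sample (points; letters name the mouse) with group means (lines). EM organoids, at 3.45% and 3.61%, lie above every other sample, and mouse F stands at 1.36% in PDGFRα-SCA1+ cells against 0.950% and 0.943% for the other mice.

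Depth was recovered from low values as between 19.6 and 25.7 M reads per homeostasis sample and between 19.3 and 28.0 M per transwell sample. Members took 0.435% to 0.758% of these reads in the former and 0.844% to 1.98% in the latter. The sorted populations were checked against marker lists. Ductal markers summed to between 56244 and 75892 in DCs and mesenchymal markers to between 25450 and 48302 in both PDGFRα+ populations. PDGFRα-SCA1+ cells, labelled as mesenchymal, summed to only 244 to 465 for the mesenchymal markers but to 2565 to 2877 for the endothelial ones, against 4.93 to 24.7 in the other populations, and 1 of their samples (mouse E) also held 3784 of ductal markers. Samples of a group in the transwell experiment were not stated to be paired, and each group has 2. Each cell type came from 2 littermates, but the sources used here do not say whether each sample is 1 animal, so p-values measure the spread within groups, pooled over the 6 groups, which may be technical.

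Values differed widely between members. They count only reads that could be placed, so members that share more of their mRNA with other genes may read lower. The order below is therefore one of values and need not be one of mRNA amounts. Rpl8, a protein of the peptidyl transferase region, had the highest mean level, with a mean deposited value of 1617 over the homeostasis samples and a mean of 2616 TPM over the transwell samples. Rpl4 followed in the homeostasis experiment with 1238, before Rplp0 with 1049, Rplp1 with 677, and Rps3 had 425. Averaged over all transwell samples, Rplp1 had 2264, Rpl4 2063, Rplp0 1942 and Rpl32 888 TPM. This order depended on the group, since Rplp1 with 1142 and 1024 TPM in DCs at day 0 lay below Rpl4 with 1591 and 1541 there. The 6 highest members together made up 52.6% of the member sum over homeostasis samples and 49.7% over transwell samples. At the other end, Rpl23a had a mean of 2.33 and 3.59 in the 2 experiments, and Rpl36a and Rpl31 had 6.28 and 7.03 in the homeostasis experiment, while Rpl24 and Rpl5 had 4.05 and 5.09 in the transwell experiment. The tissue-restricted paralogs Rpl3l, Rpl10l and Rpl39l and the pseudogene Rpl6l had means of at most 0.224 in either experiment and were not tested, which left 78 members, 32 small and 46 large.

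In the deposited values of the homeostasis experiment, the members called between DCs and stroma were lower in the stroma. In PDGFRα+SCA1+ cells against DCs, 0 members were higher and 3 lower (adjusted p under 0.05), against 9.85% of all 17028 genes tested that were higher and 14% that were lower. The median log2 fold change was 0.11 for members and -0.28 for all genes, and 51 of 78 members were positive, against 41.2% of all genes. In PDGFRα+SCA1- cells against DCs, 0 were higher and 6 lower (9.98% and 18.9% of all genes), with a median of -0.44 for members and -0.47 for all genes. In PDGFRα-SCA1+ cells against DCs, 0 were higher and 5 lower (11.5% and 11.3% of all genes), with medians of -0.06 and -0.04. The 3 comparisons share the DC samples. The direction of calls in the first comparison depended on the scale. With each sample's values rescaled to true TPM, 7 members were higher and 3 lower in PDGFRα+SCA1+ cells than in DCs, and with quantile normalization 5 were higher and 2 lower. The shares of all genes called on these 2 scales are not given here. Whether the shift in direction was particular to members therefore cannot be read from these counts.

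Rps4l and Rpl10a were lower in all 3 stromal populations than in DCs. Rps4l is an intron-less copy of Rps4x annotated as a transcribed processed pseudogene (chr6:148354656-148355598, plus strand, GRCm38). Its deposited value was 391, 206 and 222 in DCs of mice A, E and F, and 48.3, 52.7 and 40.2 in PDGFRα+SCA1+ cells. PDGFRα+SCA1- samples had 62.0, 59.8 and 105, and PDGFRα-SCA1+ samples 137, 48.4 and 91.5. Every stromal sample lay below every DC sample, and the log2 fold changes were -2.46 ± 0.39 (SE, adjusted p = 0.000571), -1.83 ± 0.39 (adjusted p = 0.00402) and -1.62 ± 0.39 (adjusted p = 0.00949). The last call was lost without the DC sample of mouse A (adjusted p = 0.0521). Rps4x itself, the X-linked small subunit gene, had 80.3, 82.0 and 54.4 in DCs and 103, 103 and 159.5 in PDGFRα+SCA1+ cells, the opposite direction, and its log2 fold change of 0.74 ± 0.31 did not pass (adjusted p = 0.113).

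Rps27l, a paralog of Rps27 known as a p53 target, had 376, 334 and 266 in DCs, 98.4, 94.7 and 124 in PDGFRα+SCA1+ cells and, without SCA1, 18.1, 84.9 and 80.8. The DC samples again lay above all others, with log2 fold changes of -1.61 ± 0.46 (adjusted p = 0.0241) and -2.66 ± 0.46 (adjusted p = 0.00103). The first was lost when the DC or the PDGFRα+SCA1+ sample of mouse A or E was left out (largest adjusted p = 0.0819). Rps27l reached 149, 175 and 180.0 where PDGFRα was absent, and there its change of -0.94 that did not pass (adjusted p = 0.18). Rps27 had only 21.8, 15.1 and 18.4 in DCs and its log2 fold change of 0.83 ± 0.64 in PDGFRα+SCA1+ cells did not pass either (adjusted p = 0.401).

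Rpl10a, a protein of the L1 stalk, which guides tRNA out of the ribosome, was lowest in PDGFRα-SCA1+ cells. It had 112, 91.7 and 109.7 in DCs and 48.6, 38.6 and 58.5 in PDGFRα+SCA1+ cells. PDGFRα+SCA1- samples had 34.7, 61.3 and 46.9, and PDGFRα-SCA1+ samples 8.83, 9.39 and 20.97. The 3 PDGFRα-SCA1+ samples lay below every other sample, at a log2 fold change of -3.00 ± 0.36 against DCs (adjusted p = 6.86e-05) and of -1.90 ± 0.36 against PDGFRα+SCA1+ cells (adjusted p = 0.00285). Against DCs the change in PDGFRα+SCA1+ cells was -1.10 ± 0.36 (adjusted p = 0.0449), a call that was lost without any of the 6 samples in turn. Rps27a, which is made as a fusion with ubiquitin, had 29.1, 16.7 and 45.1 in DCs and 11.7, 2.74 and 10.5 in PDGFRα-SCA1+ cells, which differed by -1.83 ± 0.52 (adjusted p = 0.0237), a call lost without the DC sample of mouse A or F or the PDGFRα-SCA1+ sample of mouse E. Against PDGFRα+SCA1+ cells it differed by -1.79 ± 0.52 (adjusted p = 0.0315), and 4 of the 6 fits that left out 1 sample lost that call. Of the 5 members called in PDGFRα-SCA1+ cells against DCs, Rpl27 and Rpl17 had log2 fold changes of -1.54 ± 0.51 (adjusted p = 0.048) and -1.10 ± 0.36 (adjusted p = 0.0462), and both calls were lost without any 1 of the 6 samples. Rpl17 was also lost when the mouse was fitted as a block (adjusted p = 0.0763). In PDGFRα+SCA1- cells against DCs the remaining calls were Rpl15 at -1.63 ± 0.46 (adjusted p = 0.0189), Rpl10 at -1.45 ± 0.41 (adjusted p = 0.0207), Rpl38 at -1.39 ± 0.38 (adjusted p = 0.0169) and Rpl10a at -1.15 ± 0.36 (adjusted p = 0.0329). Rpl15, Rpl10 and Rpl38 were lost without the DC sample of mouse A or that of mouse F. Rpl15 was also lost without the PDGFRα+SCA1- sample of mouse A or E, and Rpl10 without that of mouse A or F.

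Between the 2 PDGFRα+ populations, 72 of 78 members had a higher mean log2 value where SCA1 was present, against 57.7% of all genes. The median log2 fold change was 0.60 for members and 0.15 for all genes, but no member passed the threshold in limma. By adjusted p, 0.435% of all genes were called higher and 0.153% lower. At an unadjusted p under 0.05 there were 24 of 78 members and 1985 of 17028 genes. Rpl15 had 46.3, 37.8 and 38.5 in PDGFRα+SCA1+ and 8.07, 8.79 and 27.0 in PDGFRα+SCA1- cells, without overlap, a change of 1.62 ± 0.46 (adjusted p = 0.175). Smooth muscle markers were higher in PDGFRα+SCA1- cells, where they summed to between 1236 and 2769 against 129 to 169, and 4 of the 4 were called. Their part in the member levels was not tested. In PDGFRα-SCA1+ against PDGFRα+SCA1+ cells, 0 members were higher and 2 lower (10.9% and 7.86% of all genes), Rpl10a and Rps27a, with a median of -0.25 for members and 0.25 for all genes.

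Rpl26, a large subunit protein near the exit of the peptide tunnel, varied between mice rather than between populations (a pattern chosen after its values were seen). Its deposited value in mice A, E and F was 9.93, 12.3 and 110.3 in DCs, and 10.4, 7.16 and 171 in PDGFRα+SCA1+ cells. In PDGFRα+SCA1- cells it was 4.71, 9.40 and 79.6, and in PDGFRα-SCA1+ cells 5.92, 7.33 and 236. In each of the 4 populations mouse F lay at least 8.46-fold above the higher of the other mice, and at least 9.84-fold in true TPM. No other member exceeded 1.13-fold in all 4 populations. Of 15628 genes checked in the same way, 6 were at least 3-fold higher in mouse F in all 4 populations and 21 were at least 3-fold lower. Mouse F was the only female, so sex and animal cannot be told apart. In the transwell experiment all samples had between 176 and 389.7 TPM, and those of DCs at day 0 had 177 and 176. The gene lies at chr11:68901583-68906989 on the plus strand (GRCm38), and 71.3% of the 50-base stretches of its mRNA also occur in other genes. No comparison of sorted populations called Rpl26, whose SE there was 1.57 on the log2 scale.

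**Figure D2:**
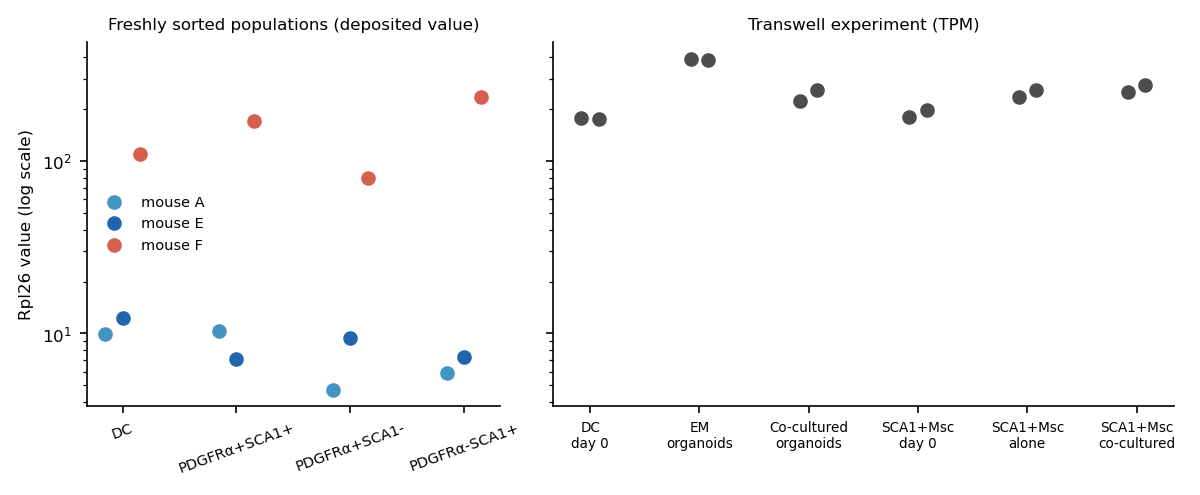
Rpl26 in each sample on a log scale, as the deposited value by mouse in the sorted populations (left) and as TPM in the 2 samples of each transwell group (right). Mouse F lies between 79.6 and 236, mice A and E between 4.71 and 12.3, and transwell samples between 176 and 389.7.

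Sorted cells at day 0 of the transwell experiment came from other mice and gave a second comparison of SCA1+ mesenchymal with ductal cells. For the co-cultures, the paper names different littermates as the source of each cell type. Unlike in the homeostasis experiment, cell type and animal may therefore not be told apart here. Of the 78 members, 13 were higher and 6 lower in SCA1+Msc cells (21.4% and 24.7% of all 18136 genes tested), with a median log2 fold change of 0.01 for members and -0.07 for all genes. All 3 members that were lower in PDGFRα+SCA1+ cells than in DCs of the homeostasis experiment were among these 6. Rps4l had 425 and 358 TPM in DCs and 141 and 121 in SCA1+Msc cells, a log2 fold change of -1.57 ± 0.13 (adjusted p = 1.26e-05). Rpl10a had 163 and 165 in DCs and 52.0 and 69.5 in SCA1+Msc cells, a change of -1.43 ± 0.16 (adjusted p = 7.49e-05). Rps27l had 356 and 344 in DCs and 177 and 229 in SCA1+Msc cells, a change of -0.79 ± 0.11 (adjusted p = 0.000289). The direction of these 3 was therefore the same in 2 sets of mice that share no sample, though the SCA1+ cells were gated differently. Rps27a fell by 0.80 ± 0.21 (adjusted p = 0.0117) and Rpl19 by 0.61 ± 0.21 (adjusted p = 0.0397). The Rpl19 call was lost without either DC sample or the first SCA1+Msc sample, and the Rps27a call without the second DC sample.

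Higher in SCA1+Msc cells at day 0 were Rps21, which helps to mature small subunit RNA, at 219 and 236 TPM against 128 and 102, Rpl39, a small protein of the peptide tunnel, at 146 and 152 against 83.1 and 75.5, and Rplp1 at 1714 and 1987 against 1142 and 1024. No groups overlapped, and the log2 fold changes were 0.99 ± 0.19 (adjusted p = 0.00229), 0.91 ± 0.11 (adjusted p = 0.000113) and 0.77 ± 0.12 (adjusted p = 0.000511). In the homeostasis experiment the same 3 genes had changes of 0.34, 0.40 and 0.62 in PDGFRα+SCA1+ cells, none of which passed (adjusted p from 0.177 to 0.646). Hepatocyte markers summed to 18354 and 23015 in SCA1+Msc cells at day 0 against 4419 and 5436 in DCs, with 2 of 6 called higher, and erythroid markers to 8678 and 10762 against 5206 and 5314, with 5 of 5 called higher. No marker of either list was at 0 in these samples, and their part in these differences was not tested.

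EM organoids were compared with DCs at day 0, a contrast that joins growth in expansion medium with 15 days outside the liver. Most members changed. Of the 78, 55 were higher and 13 lower in EM organoids (27.1% and 17.2% of all genes), with a median log2 fold change of 1.01 for members and 0.12 for all genes. The small subunit had 24 higher and 5 lower of 32, and the large subunit 31 higher and 8 lower of 46. 

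The 5 largest rises came from both subunits and the P-stalk. Rpl39 had 83.1 and 75.5 TPM in DCs at day 0 and 329 and 344 in EM organoids, a log2 fold change of 2.07 ± 0.11 (adjusted p = 9.58e-07). Rps21 went from 128 and 102 to 445 and 468, a change of 1.99 ± 0.19 (adjusted p = 3.6e-05). For Rplp1, which binds elongation factors on the stalk, the values were 1142 and 1024 against 3484 and 3875, a change of 1.76 ± 0.12 (adjusted p = 3.55e-06). In each gene the groups lay further apart than the samples within either group. Rps20, a protein of the small subunit head, had 79.2 and 65.7 against 235 and 252, a change of 1.74 ± 0.13 (adjusted p = 7.5e-06), and Rpl13a, a large subunit protein known for a second role in interferon-induced silencing, had 25.6 and 27.1 against 87.3 and 88.8, a change of 1.70 ± 0.15 (adjusted p = 2.23e-05). The most abundant member, Rpl8, had 1755 and 1709 against 3853 and 3862, and Rps27l had 356 and 344 against 824 and 786.

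The members that were lower in EM organoids were led by Rpl9, with 36.8 and 37.2 TPM in DCs at day 0 and 5.46 and 10.3 in EM organoids, a log2 fold change of -2.15 ± 0.28 (adjusted p = 0.00019). Rpl10, which joins the large subunit late in its assembly, had 59.6 and 67.3 against 30.7 and 17.2, a change of -1.42 ± 0.29 (adjusted p = 0.00284). Rps27a had 44.7 and 47.3 against 19.1 and 15.5, a change of -1.37 ± 0.21 (adjusted p = 0.000653). All 3 genes thus had organoid values below the lowest value at day 0. Rpl10a had 163 and 165 against 68.8 and 60.5, a change of -1.33 ± 0.16 (adjusted p = 0.000136), and Rpl12, a stalk base protein, had 30.9 and 29.0 against 11.3 and 12.2, a change of -1.28 ± 0.24 (adjusted p = 0.00173).

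Co-cultured organoids shared the DCs at day 0 as control, and 42 members were higher and 15 lower than there (23.2% and 19.1% of all genes), with a median log2 fold change of 0.41 for members and 0 for all genes. Rpl39 had 189 and 209.7 TPM and a change of 1.32 ± 0.11 (adjusted p = 1.4e-05), Rps27l had 837 and 890 and a change of 1.30 ± 0.11 (adjusted p = 1.66e-05), and Rps21 had 226 and 257 and a change of 1.07 ± 0.19 (adjusted p = 0.00174). Rpl9 was lowest again, with 3.70 and 4.69 and a change of -2.88 ± 0.28 (adjusted p = 3.46e-05), and Rpl10 had 15.2 and 20.7 and a change of -1.78 ± 0.29 (adjusted p = 0.000831).

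Organoids grown over mesenchyme in mesenchymal medium had lower member levels than those grown alone in expansion medium. Of the 78 members, 0 were higher and 44 lower in co-cultured than in EM organoids (5.73% and 7.21% of all genes). The median log2 fold change was -0.61 for members and -0.13 for all genes, and 5 members were positive, against 33.3% of all genes. Leaving out the second EM sample or the first co-cultured sample left 28 and 27 lower. Rpl27a had 30.7 and 30.9 TPM in co-cultured organoids against 69.9 and 62.4 in EM organoids, a change of -1.08 ± 0.18 (adjusted p = 0.00451), beside 28.2 and 28.7 in DCs at day 0. Rplp1 had 1840.2 and 2000.3 against 3484 and 3875, a change of -0.94 ± 0.12 (adjusted p = 0.0009), and Rps20 had 121 and 140 against 235 and 252, a change of -0.90 ± 0.13 (adjusted p = 0.00204). Both stayed above their day 0 values of 1142 and 1024 and of 79.2 and 65.7. Rps21 at -0.92 ± 0.19 (adjusted p = 0.0132) and Rps28 at -0.91 ± 0.16 (adjusted p = 0.00628) were the other large falls, and both calls were lost without the second EM sample or the first co-cultured sample, that of Rps21 also without the first EM sample (adjusted p up to 0.0992). Rps4l, the pseudogene that was higher in ductal than in stromal cells, had 365 and 421 in EM organoids and 217 and 214 in co-cultured organoids, a change of -0.86 ± 0.13 (adjusted p = 0.00296), beside 425 and 358 in DCs at day 0. Furthest from the member median on the other side was Rps29, with 14.4 and 18.4 against 10.9 and 12.7, followed by Rps23 with 32.8 and 38.8 against 27.6 and 31.3, and Rps27l with 837 and 890 against 824 and 786, whose changes of 0.43, 0.27 and 0.10 did not pass (adjusted p from 0.504 to 0.671).

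**Figure D3:**
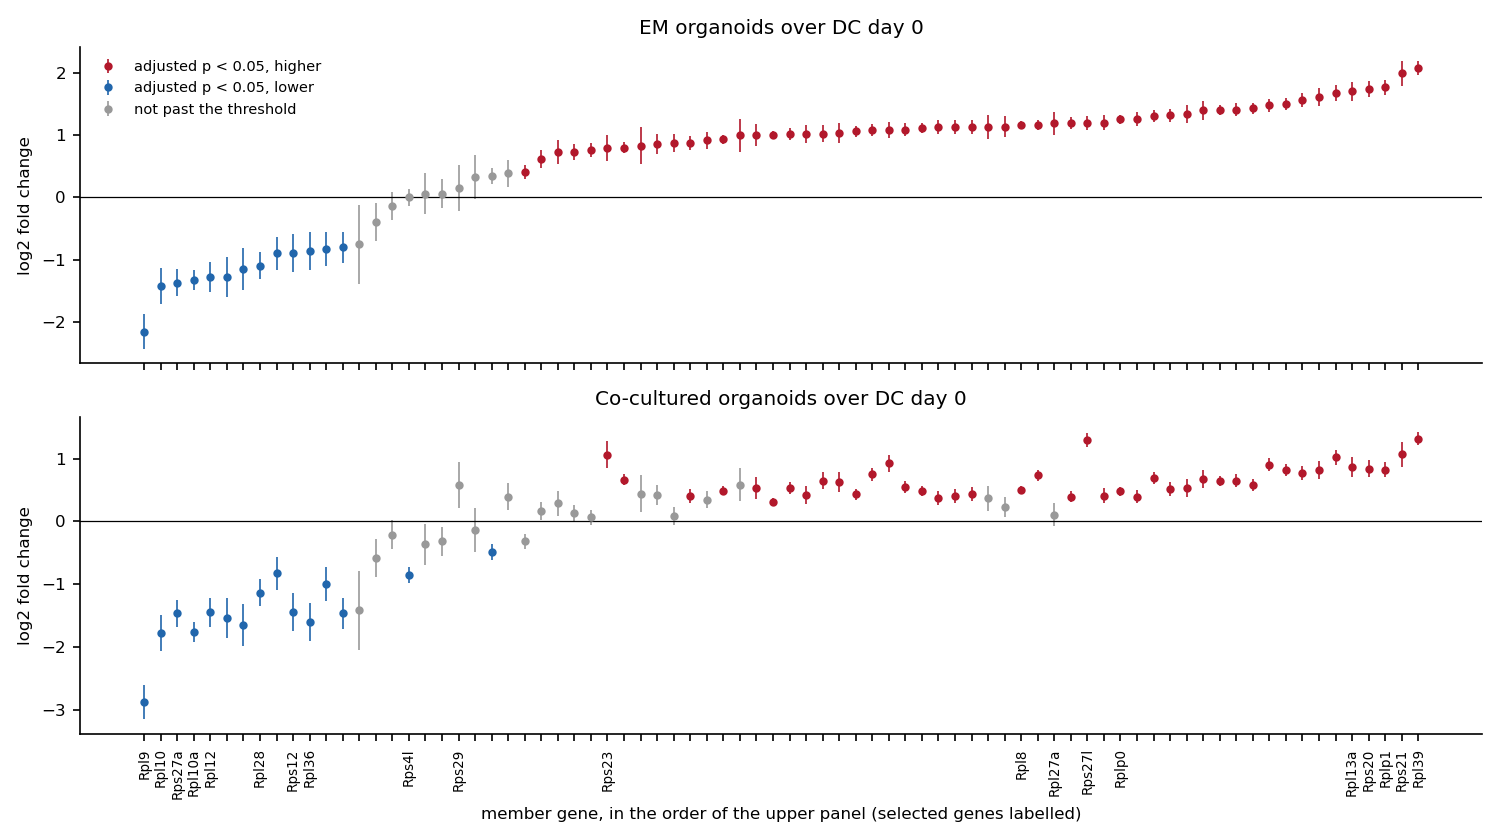
Log2 fold change (points) with its standard error (bars) of the 78 tested members in EM organoids (upper) and co-cultured organoids (lower) over DCs at day 0, in the order of the upper panel with a selection of genes described in the text labelled, red and blue where the adjusted p was under 0.05. Rises ended at 2.07 for Rpl39 in EM organoids and at 1.32 in co-cultured organoids, and Rpl9 was lowest in both at -2.15 and -2.88, with the same day 0 samples as control.

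SCA1+Msc cells changed with culture as well. In cells cultured alone, 40 members were higher and 12 lower than at day 0 (27.4% and 17.5% of all genes), with a median log2 fold change of 0.37 for members and 0.19 for all genes. Rps27l rose most, from 177 and 229 to 521 and 527 TPM, a change of 1.38 ± 0.11 (adjusted p = 1.19e-05). Rpl32 had 515 and 467 at day 0 and 879 and 989 in culture, and Rplp0, the anchor of the P-stalk, 1147 and 1118 and then 2108 and 2178, with changes of 0.93 ± 0.09 (adjusted p = 5.01e-05) and 0.92 ± 0.07 (adjusted p = 5.76e-06). In each the cultured samples lay above both day 0 samples. Rpl35 and Rps26 rose by 0.92 ± 0.15 (adjusted p = 0.000832) and 0.91 ± 0.10 (adjusted p = 6.68e-05).

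The largest of the falls in SCA1+Msc cells, as in organoids, was in Rpl9, from 31.6 and 33.6 to 5.54 and 5.33 TPM, a log2 fold change of -2.38 ± 0.28 (adjusted p = 0.000111). Rpl36 had 63.5 and 85.9 at day 0 and 13.9 and 23.2 in culture, a change of -1.98 ± 0.30 (adjusted p = 0.000599). Rps12 had 54.3 and 29.1 and then 11.8 and 9.41, a change of -1.82 ± 0.31 (adjusted p = 0.00106). For these genes no cultured sample reached a day 0 sample. Rpl24 fell by 2.09 ± 0.63 (adjusted p = 0.0221) at values of 14.7 and 6.48 against 1.65 and 1.45, and this call was lost with a pseudocount of 0.1 and without the first day 0 sample or either cultured sample.

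No member was called between SCA1+Msc cells in co-culture and those cultured alone. In limma 0 of 78 members passed, and 0.0937% of all genes were called higher and 0.0331% lower. At an unadjusted p under 0.05 there were 1 of 78 members and 1263 of 18136 genes. The member log2 fold changes ran from -0.42 for Rps29 to 0.42, with a median of 0.03 and a median SE of 0.14. Rplp1 and Rps20, which were lower in co-cultured than in EM organoids, changed here by 0.12 ± 0.12 and 0.07 ± 0.13. The contrasts are unlike, since co-cultured and EM organoids also differed in medium.

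Across the 3 comparisons of cultured with day 0 cells, of which the first 2 share their controls, 35 members were higher in all and 9 were lower in all. Taken singly, the comparisons called 27.1%, 23.2% and 27.4% of all genes higher and 17.2%, 19.1% and 17.5% lower. The share of all genes called in all 3 was not counted. Among the 9 were Rpl9, Rpl10, Rpl11, Rpl12, Rpl28, Rpl36, Rps12 and Rps27a. They were compared by a property of their sequence. For each member the share of 50-base stretches of its main mRNA that occur in another gene, pseudogenes included, was counted in the annotation (GENCODE M21). At least 50% were shared in 7 of the 9 and in 9 of the 35. In EM organoids the 55 higher members had a median of 41.6% shared, and the 13 lower members 81.1%. Rpl9 had 93.3% and Rpl10 92.1%, against 16.5% in Rpl39, 7.58% in Rps20 and 22.0% in Rpl13a, while Rplp1 with 60.0% and Rpl28 with 34.5% went the other way.

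Of the 42 tested members that shared less than 50%, 36 were higher and 2 lower in EM organoids than in DCs at day 0, with a median log2 fold change of 1.17. Of the 36 that shared 50% or more, 19 were higher and 11 lower, with a median of 0.57. In SCA1+Msc cells cultured alone the counts were 29 and 2 of 42 against 11 and 10 of 36. Over the 78 members, which share libraries, Spearman's rho between the shared percentage and the log2 fold change was -0.57 in EM organoids, -0.53 in co-cultured organoids and -0.46 in SCA1+Msc cells cultured alone (Pearson's r -0.56, -0.54 and -0.51). The parts of the exons where reads can be placed in only 1 gene were also located differently. Of these stretches, a median of 80.8% lay outside the protein-coding transcripts (retained introns and other non-coding transcripts) in the 13 members lower in EM organoids, against 51.4% in the 55 higher members. The part of these properties in the falls was not tested.

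**Figure D4:**
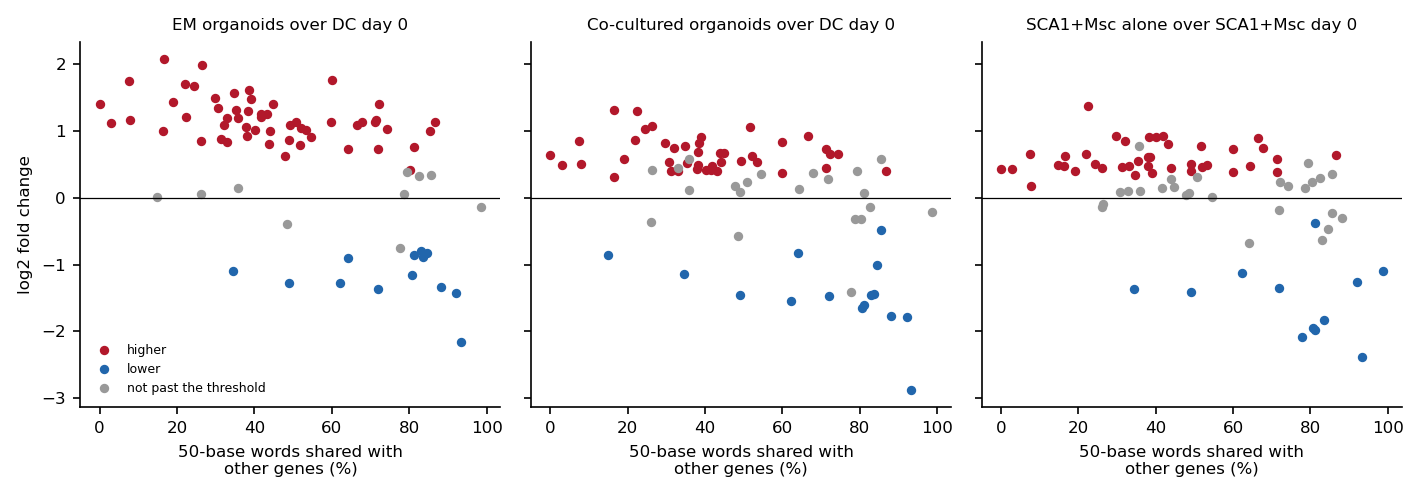
Log2 fold change against the percentage of 50-base stretches shared with other genes, for the 78 tested members in 3 culture comparisons, red and blue where the adjusted p was under 0.05. Lower members cluster at the right, where their median was 81.1% in EM organoids against 41.6% for the higher ones.

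Members with and without a pyrimidine run in the window had close medians. Because the window takes in bases before and well after the start, the split does not separate mRNAs with and without a TOP motif. In EM organoids over DCs at day 0, the 33 members with a run in the window had a median log2 fold change of 1.02, with 25 higher and 5 lower, and the 24 tested members with an entry but no run had 1.06, with 18 higher and 5 lower. In co-cultured over EM organoids the medians were -0.62 and -0.64, with 20 of 33 and 14 of 24 lower. Of the sequences shown above, Rplp0 without a run had 1325 and 1310 TPM at day 0 and 3127 and 3145 in EM organoids, whereas Rpl28 with a run had 23.6 and 22.6 and then 10.4 and 10.1.

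Genes of translation outside the members were counted on whole lists, apart from regulators such as Myc. For scale, 27.1% of all genes were higher and 17.2% lower in EM organoids than in DCs at day 0. In co-cultured over EM organoids these shares were 5.73% and 7.21%. Of 20 elongation factors and other genes with TOP mRNAs, 15 were higher and 1 lower in EM organoids than in DCs at day 0, with Eif3f at 1.89 ± 0.10 and Eef1b2 at 1.69 ± 0.12, and the host gene of small nucleolar RNAs Snhg1 at -1.91 ± 0.21 (largest adjusted p = 8.76e-05). In co-cultured over EM organoids 0 were higher and 12 lower, Eef1b2 by -0.89 ± 0.12 (adjusted p = 0.00118). Of 78 mitochondrial ribosomal protein genes, 54 were higher and 1 lower in EM organoids than at day 0, but in co-cultured over EM organoids 2 were higher and 4 lower. Of 30 genes of ribosome biogenesis, in contrast, 3 were higher and 23 lower in EM organoids than at day 0, with a median of -1.36, led by Gnl3 (nucleostemin) at -2.89 ± 0.17 (adjusted p = 1.87e-06). In co-cultured over EM organoids 0 of these were higher and 1 lower, Npm1 (nucleophosmin) at -0.66 ± 0.09 (adjusted p = 0.00129). Myc, a known activator of ribosome genes, had a mean of 1329 TPM at day 0 and 163 in EM organoids, a change of -3.02 ± 0.18 (adjusted p = 2.08e-06), and Mycn had 1.96 and 14.9, a change of 2.45 ± 0.44 (adjusted p = 0.00141). These 2 were named from a list of regulators by the size of their change, and no count is given for that list.

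Other values moved between day 0 and culture together with the members. Immediate early genes, which respond within minutes to tissue dissociation, summed to 10759 and 10864 TPM in DCs at day 0 and to 976 and 1013 in EM organoids, with 8 of 8 lower. Of 9 proliferation genes, 8 were higher in EM organoids, with sums of 137 and 145 at day 0 and of 297 and 366 in EM organoids. Erythroid markers summed to 5206 and 5314 in DCs at day 0 and to 0.467 and 1.37 in EM organoids, where 4 of the 5 were at 0, and hepatocyte markers to 4419 and 5436 and then 1342 and 1406, with 4 of 6 lower. In SCA1+Msc cells the hepatocyte sum went from 18354 and 23015 to 5.68 and 12.8 and the erythroid sum from 8678 and 10762 to 1.36 and 1.81. Their part in the member changes was not tested. In bulk RNA, fewer cells of a type and less RNA per cell cannot be told apart.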

How the data were processed

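Single-read, 50-base Smart-seq2 libraries were aligned by the authors to GRCm38/mm10 with STAR 2.5.0a, filtered on mapping quality and counted over exons with featureCounts 1.6.0, per their methods and processing notes. Transwell values were deposited by the authors as RPKM and rescaled here to TPM. The homeostasis table, deposited as TPM, was treated as a score, because its columns sum to between 847270 and 1173511: the totals used for scaling recycle through the 12 samples down the table, so that deposited values are 0.722 to 1.386 times TPM. Mean columns were not used. Depth was recovered from values worth up to 20 reads, of which 92.9% and 93.1% were whole within 0.02.

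Values were tested as log2(value + 1), so fold changes of low genes are understated, with limma 3.58.1 in R 4.3.3: 1 mean per group over the 12 samples of an experiment, a mean-variance trend, two-sided tests, Benjamini-Hochberg adjustment over all genes reaching 1 in at least 3 (homeostasis) or 2 (transwell) samples, and a threshold of 0.05. All adjusted p-values are from limma. Values are not counts, so no count model was used. Homeostasis samples with the same letter come from 1 mouse (correlations of residuals 0.0102 to 0.0973). On simulated data, 200 genes with a mean log2(value + 1) above 3 were changed by 2 on the log2 scale in 1 group. Noise was independent between samples, with no shared effect of a mouse. Of the changed genes, 41% were recovered for PDGFRα+SCA1+ cells against DCs (7.87% of calls wrong) and 85% for EM organoids against DCs at day 0 (5.03%). These rates do not cover members with lower values or values that depend on the mouse.

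Members and lists were chosen with earlier results of these data known. Named for each comparison were the 5 largest rises and falls among members past the threshold without overlap, the 5 furthest from the median, the 6 highest and lowest by level, paralogs, and for each list its 2 largest rises and falls, of which the text gives a selection. The results of some genes are not reported here. Alternatives were a pseudocount of 0.1, no filter, quantile normalization, a total without the members, a replicate block, other units, only the 2 groups compared, and leaving out each sample.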

Additional observations from a re-analysis of the deposited data

Results flagged for a closer look

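The change from day 0 to co-culture differed between compartments for 6 of 78 members, 3 with a larger and 3 with a smaller or more negative change in ductal than in SCA1+Msc cells (13.8% and 14.5% of all genes). This contrast was chosen after seeing the data, and each value is the ductal minus the mesenchymal log2 change, tested as an interaction in limma. The SCA1+Msc cells were expanded before the DCs were added, so the changes of the compartments cover unequal times in culture. Rpl10a differed by -1.76 (adjusted p = 0.000539), with 163 and 165 TPM in DCs and 44.6 and 50.7 in co-cultured organoids, against 52.0 and 69.5 and then 59.8 and 60.4 in SCA1+Msc cells. Rps4l differed by -1.35 (adjusted p = 0.000863), with 425 and 358 and then 217 and 214 in ductal cells, and 141 and 121 and then 183 and 187 in SCA1+Msc cells, so the compartments moved in opposite directions. Rplp0 rose in both and differed by -0.40 (adjusted p = 0.0105). The larger ductal changes were those of Rps21 at 0.98 (adjusted p = 0.0256), Rpl39 at 0.58 (adjusted p = 0.0201) and Rpl22 at 0.54 (adjusted p = 0.0452).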

How the results depend on the processing

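In PDGFRα+SCA1+ cells against DCs, 3 members were called, and 1 with no filter, 5 with only the 2 groups compared, 7 with quantile normalization, 6 with a total without the members and 10 with true TPM; in the last 3, more were higher than lower. In PDGFRα-SCA1+ cells against DCs there were 5, and 3 with a pseudocount of 0.1 and 8 with true TPM. Against PDGFRα+SCA1+ cells there were 2, and 10 with quantile normalization and 4 with true TPM. Between the PDGFRα+ populations true TPM gave 1 in place of 0. Between SCA1+Msc cells and DCs at day 0, 19 became 10 with only the 2 groups compared. The cause was not tested. The shares of all genes called under these alternatives are not given, so the counts describe members only.

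Leaving out 1 sample gave 1 to 2 calls for PDGFRα+SCA1+, 2 to 10 for PDGFRα+SCA1- and 1 to 5 for PDGFRα-SCA1+ cells against DCs, 0 to 1 between the PDGFRα+ populations and 1 to 3 for PDGFRα-SCA1+ against PDGFRα+SCA1+ cells. In the transwell experiment it gave 57 to 61 for EM organoids and 46 to 53 for co-cultured organoids against day 0, 27 to 43 between the organoids, 38 to 51 for cultured SCA1+Msc cells and 10 to 18 between the day 0 cells. A lone sample was assumed to vary like the other groups.

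With the replicate block there were 3, 8, 4, 0 and 3 calls in the homeostasis comparisons, and in the transwell experiment, where no source pairs the samples (correlations of residuals 0.00428 to 0.0295), 68, 56, 44, 51, 0 and 19, with Rpl19 lost between the day 0 cells (adjusted p = 0.0518). Without the 3 highest members, shares were 0.648% for DCs, 0.810% for PDGFRα+SCA1+ samples, 0.530% for the PDGFRα+SCA1- and 0.712% for the PDGFRα-SCA1+ samples, 1.12%, 2.46% and 1.61% in DCs at day 0, EM and co-cultured organoids, and 1.10%, 1.597% and 1.62% in SCA1+Msc cells at day 0, alone and in co-culture.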
